A study of Cucumis sativus with 4 samples.

Results

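This set holds 91 of the 17585 genes listed with values for cucumber (Cucumis sativus), in the first true leaf. They were selected on their transcript levels: they were clearly transcribed in control leaves and almost undetected in leaves carrying an RNA interference construct against the transcription factor gene CsTCP18a. A gene entered the set if its mean over both control libraries was at least 10 and if both RNAi libraries lay under 0.5, in reads per unit of scaled library size (CPM on a TMM-scaled library, called normalised CPM). The same values chose the genes and are reported here, so the difference between the groups is a description and carries no test.

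The tested plants carried an RNAi construct built on 402 bp of CsTCP18a coding sequence. The control plants, labelled wild type (WT), were transformed with the empty PFGC-1008 vector. Both came from Agrobacterium strain GV3101 and the inbred line R1461, were grown in days of 16 h (25 °C) and nights of 8 h (18 °C), and were sampled at 20 days, so a vector and its transformation are common to both groups. There were 2 RNAi and 2 WT libraries. Nothing in the labels ties the libraries to separate plants or lines, so the only replicate error here is that between libraries, and it may be technical.

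TCP proteins are plant transcription factors that act on cell proliferation and growth. The BRANCHED1 type, to which CsTCP18a belongs, is known from other plants for holding back the outgrowth of axillary buds and so for limiting shoot branching. An RNA interference construct makes double-stranded RNA that the cell cuts into small RNAs, which then direct the destruction of matching transcripts.

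The table gives locus IDs without gene names. None of the 17585 IDs, and 0 of the 91, matched the cucumber RefSeq gene table (assembly Cucumber_9930_V3), so the genes are described by ID, level and pattern, with no role. For the same reason neither the level of CsTCP18a nor leaf markers were read, and the genotype and tissue labels were not checked against transcripts. In bulk leaf RNA, fewer cells of a type and less RNA per cell cannot be told apart.

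Together the 91 genes gave 346 and 344 reads in RNAi replicates 1 and 2, out of 24372389 and 27507543 reads, against 77354 and 61605 reads in WT replicates 1 and 2, out of 27664402 and 18930131. That is 12.3 and 10.97 normalised CPM in the RNAi libraries and 3381 and 3528 in the WT libraries. The set made up 0.00142% and 0.00125% of the RNAi reads and 0.280% and 0.325% of the WT reads. For every member both RNAi values lay below both WT values, and the lower WT library exceeded the higher RNAi library by at least 9.09-fold. The choice of members fixes the gap between the WT mean and both RNAi values. It sets no minimum for the lower WT library, and the gap of that library over RNAi was not tested. In limma's test across the 17491 genes tested, 89 of the 91 were called lower in RNAi at a Benjamini-Hochberg adjusted p under 0.05, where 29.5% of all tested genes were called lower and 31% higher. Since the rule used that contrast, nothing is read from the 89. Without RNAi replicate 1 the test called 68 of the 91 and without RNAi replicate 2 it called 69, each with the remaining RNAi library assumed to vary like the WT libraries.

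**Figure D1:**
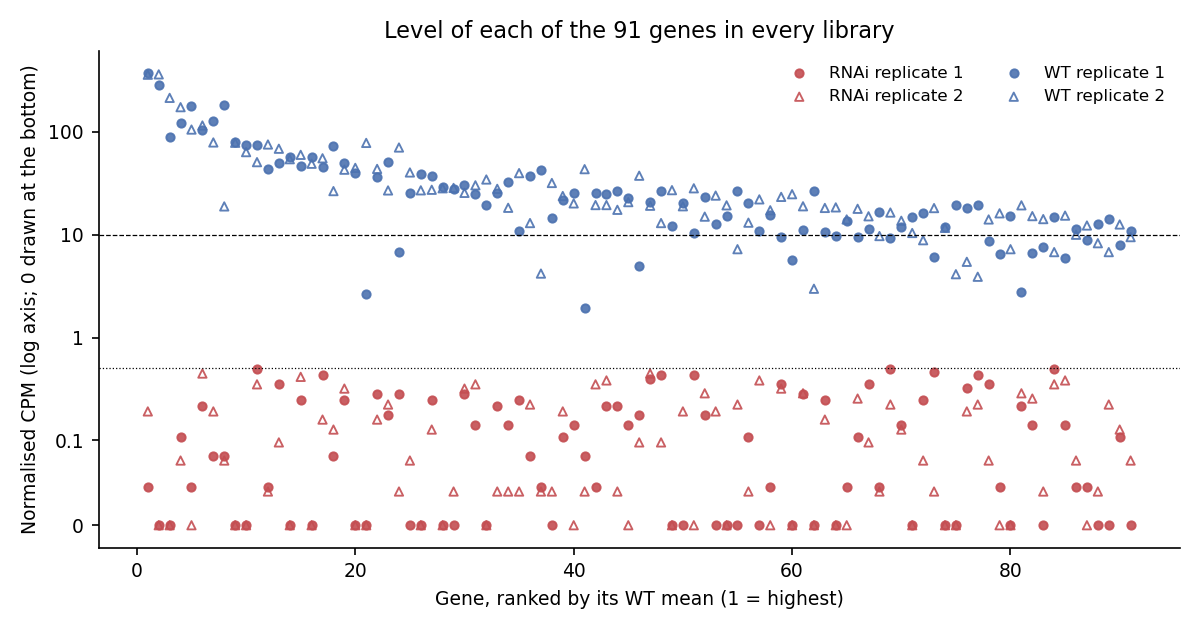
Normalised CPM on a log axis, with 0 drawn at the bottom, for the 91 genes ranked by WT mean, with 1 point per library. The RNAi points lie under the dotted line at 0.5, most WT points lie above the dashed line at 10, and single WT points drop as low as 1.92.

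Most of the genes were transcribed at moderate levels in the WT leaves. Their WT means had a median of 21.1 normalised CPM, against 40.3 for all 11409 genes with a WT mean of at least 10. The WT mean was under 20 in 45 members, from 20 to 50 in 29, from 50 to 100 in 10 and at least 100 in 7. The 2 most abundant members held 19.8% of the WT signal of the set and the 15 most abundant held 54.2%.

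Csa4G285740 was the most abundant member and ranked 413 among all genes in the WT leaves. It had 0.0357 and 0.191 normalised CPM in RNAi replicates 1 and 2, against 369 and 357 in WT replicates 1 and 2. The WT libraries were close to each other here, and the RNAi values rest on 1 and 6 reads. The RNAi level was 0.0324% of the WT level (95% interval 0.0130 to 0.0668, exact Clopper-Pearson on summed reads). All such intervals cover counting error only, and PCR copies are not independent molecules.

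Csa2G176190 followed, with 0 reads in both RNAi libraries, against 283 and 360 normalised CPM in WT replicates 1 and 2. A limit of 3 reads over both RNAi libraries corresponds to 0.0505 normalised CPM, which makes this gene at least 6259.96-fold lower in RNAi. For such bounds, as for the percentages, the WT level is the reads of both WT libraries summed over their summed scaled size, which differs slightly from the mean of both WT values. The bounds take this WT level as exact and cover the RNAi count only. Against the lower WT library alone the fold would be smaller. Csa1G612880 also had 0 RNAi reads, against 88.1 and 213 normalised CPM in WT replicates 1 and 2, and was at least 2814-fold lower. Unlike those of Csa4G285740, its WT libraries stood 2.42-fold apart. Csa3G842740, too, had no RNAi reads, against 56.1 and 54.0 normalised CPM in the WT libraries, at least a 1092.6-fold difference.

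Csa7G222870 had 0.0357 and 0 normalised CPM in the RNAi libraries, against 178 and 105 in the WT libraries. A single RNAi read stands behind its RNAi level, 0.0115% of WT (0.000292 to 0.0643). Csa3G180260 had 0.0714 and 0.191 normalised CPM in the RNAi libraries, against 128 and 78.6 in the WT libraries. In both genes WT replicate 1 was the higher control.

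Some abundant members kept a low RNAi level that rests on more reads. Csa5G077190 had 0.214 and 0.447 normalised CPM in the RNAi libraries, against 104 and 115 in the WT libraries, and its 20 RNAi reads amount to 0.311% of WT (0.190 to 0.480). Csa4G303040 had 0.4995 and 0.351 normalised CPM in the RNAi libraries, against 74.7 and 50.6 in the WT libraries. Its 25 RNAi reads, a number shared with Csa2G372760 and Csa5G593430 and exceeded by no member, amount to 0.655% of its WT level (0.423 to 0.970). Csa3G523580 had 0.2498 and 0.415 normalised CPM in the RNAi libraries, against 46.6 and 59.6 in the WT libraries. Csa3G853160 had 0.357 and 0.0957 normalised CPM in the RNAi libraries, against 50.1 and 68.3 in the WT libraries. Each of these 4 genes was thus detected in both RNAi libraries.

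How much signal remained in the RNAi leaves differed among members. In 20 members neither RNAi library held a read, in 11 the reads came from RNAi replicate 2 alone, in 8 from RNAi replicate 1 alone, and in 52 from both. Over both RNAi libraries 16 members had 1 to 3 reads, 23 had 4 to 10 and 32 had more than 10, with a median of 7. RNAi replicate 1 gave the higher value in 38 members and RNAi replicate 2 in 33, so within the set neither was the higher throughout. The rule held both RNAi libraries under the same ceiling and left out genes above it in either library. This split therefore describes the chosen members only, and whether the RNAi libraries differ in remaining signal was not tested. With members at 0 reads set to the 3-read limit, the median RNAi level was 0.431% of WT. It exceeded 1% in 25 members and was highest, at 3.69%, in Csa5G593430.

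Genes without RNAi reads were found at each level of WT abundance. Neither RNAi library held a read in 9 of the 45 members with a WT mean of 10 to 20, in 5 of the 29 from 20 to 50 and in 6 of the 17 of at least 50. The median number of RNAi reads was 7, 7 and 4 in the same order. The remaining share of the WT level had medians of 1.07%, 0.443% and 0.0727% in these classes and was lowest in the most abundant members. The ceiling of 0.5 on the RNAi values bounds this share more tightly for abundant genes, so the order follows in part from the rule. Counts by class are a description and were not tested.

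The limits of the set fall within a continuous range. Among the 11409 genes with a WT mean of at least 10, both RNAi libraries were under 0.25 in 61 (0.535%), under 0.5 in 91 (0.798%), under 1 in 164 (1.44%), under 2 in 280 (2.45%) and under 5 in 596 (5.22%). On the WT side the lowest member, Csa6G445780, had 0 and 0.0638 normalised CPM in RNAi and 10.8 and 9.45 in WT. Next above it were Csa7G432230 with a WT mean of 10.2 and Csa2G034770 with 10.4, and just outside lay Csa3G910670, Csa5G174570 and Csa5G517150 with WT means of 9.97, 9.91 and 9.84. No gap separates members from non-members on this side.

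On the RNAi side the highest value inside was 0.4995 normalised CPM, 14 reads in RNAi replicate 1, and it was reached by Csa1G042350, Csa5G593430 and Csa4G303040. Just outside, Csa7G047400, Csa4G303090 and Csa2G371110 each reached 0.510 in RNAi replicate 2. Near the ceiling a few reads thus decide on membership.

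**Figure D2:**
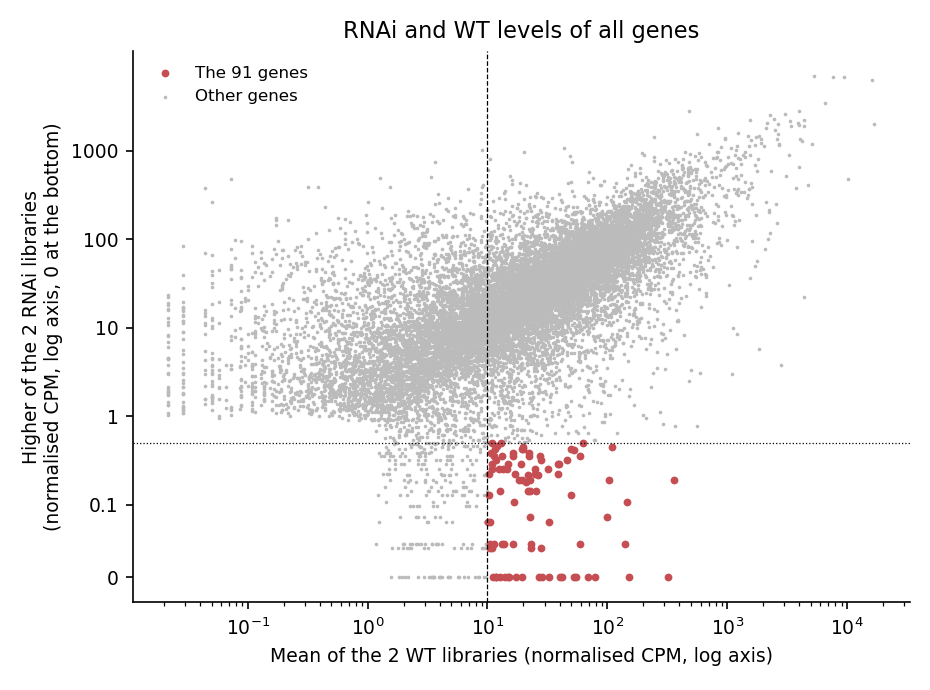
The higher of both RNAi values (log axis, 0 at the bottom) against the mean of both WT values (log axis), both in normalised CPM, for the genes with a WT mean above 0. The 91 genes fill the corner at a WT mean of at least 10 and RNAi values under 0.5, with other genes directly adjoining on both sides.

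The WT libraries differed from each other more often in these genes than in the other genes transcribed in WT. The rule used the mean of the WT libraries, so a gene scarce in 1 WT library could enter through the other. Of the 11318 other genes with a WT mean of at least 10, 10127 had a higher RNAi value of 10 or more. How far the rule itself sets the contrast was not tested. The higher WT library exceeded the lower by more than 2-fold in 30 of the 91 members (33.0%) and in 727 of the 11318 other genes with a WT mean of at least 10 (6.42%). More than a 4-fold gap was seen in 11 members (12.1%) and 99 other genes (0.875%). The median gap was 1.60-fold in members and 1.16-fold in the other genes. Each WT value comes from 1 library and genes are not independent replicates, so this contrast was not tested. The fewest reads of any member in a WT library were 44.

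Neither WT library was the higher one throughout. WT replicate 1 was higher in 44 of the 91 members (48.4%) and in 50.7% of the other genes. Among the members more than 2-fold apart, WT replicate 1 was higher in 13 and WT replicate 2 in 17. In 32 members 1 WT library was under 10, 18 times WT replicate 1 and 14 times WT replicate 2. The other 59 reached 10 in both.

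**Figure D3:**
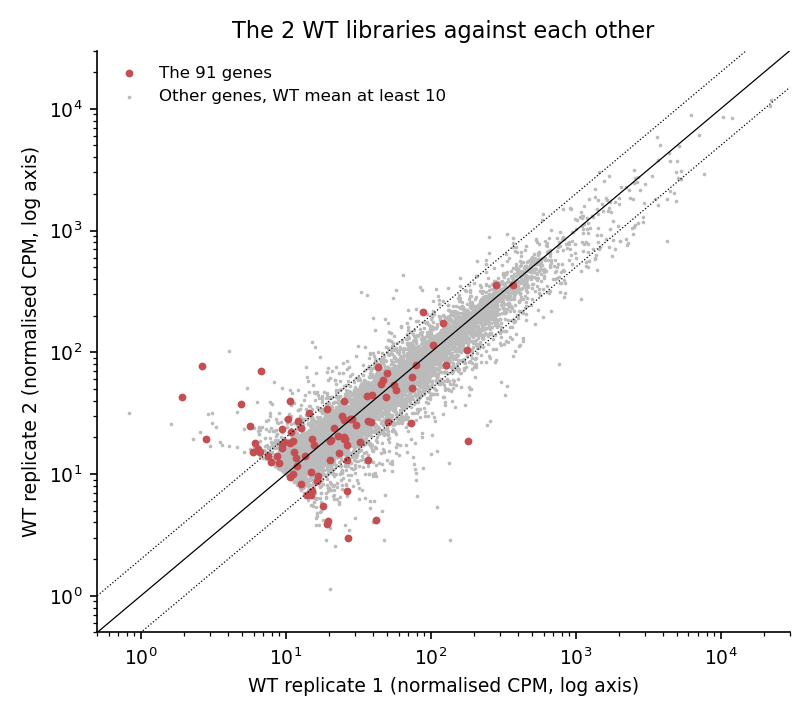
WT replicate 2 against WT replicate 1 in normalised CPM on log axes, for the 91 genes and for the other genes with a WT mean of at least 10. The solid line marks equal values and the dotted lines a 2-fold gap, and 30 of the 91 genes lie outside the dotted lines on either side.

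The widest gap was in Csa5G612900, with 0 reads in both RNAi libraries, against 2.62 and 77.8 normalised CPM in WT replicates 1 and 2. Csa6G017030 had 0.0714 and 0.0319 normalised CPM in the RNAi libraries, against 1.92 and 43.2 in WT replicates 1 and 2. In these genes WT replicate 2 was 29.7-fold and 22.5-fold above WT replicate 1. They were the members that limma did not call, with adjusted p values of 0.0621 and 0.0706. Csa5G605140 had 0.285 and 0.0319 normalised CPM in the RNAi libraries, against 6.77 and 70.1 in the WT libraries.

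In the opposite direction, Csa6G497180 had 0.0357 and 0.0319 normalised CPM in the RNAi libraries, against 42.1 and 4.18 in WT replicates 1 and 2. Csa7G061710 had 0.0714 and 0.0638 normalised CPM in the RNAi libraries, against 179.6 and 18.8 in the WT libraries. Csa3G851930 had 0 reads in the RNAi libraries, against 26.7 and 2.98 normalised CPM in the WT libraries. Here WT replicate 1 was between 8.97-fold and 10.1-fold above WT replicate 2, and the lower control still lay above both RNAi libraries.

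By level of WT abundance, the shares of members and other genes with more than 2-fold gaps stood furthest apart at low levels. For more than 4-fold gaps they stood furthest apart from 20 to 50, at 17.2% of members and 0.969% of other genes. From 10 to 20 those shares were 11.1% and 1.18%. More than 2-fold gaps were seen in 19 of the 45 members with a WT mean of 10 to 20 (42.2%), against 7.92% of the 2550 other genes at that level. From 20 to 50 it was 9 of 29 members (31.0%), against 5.86% of 4026 other genes. At 50 or more it was 2 of 17 members (11.8%), against 6.09% of 4742 other genes, which is too few members to read a difference from.

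Wide gaps were also common just above the RNAi ceiling of 0.5. Among genes with a WT mean of at least 10, the share with more than a 2-fold gap was 41.1% (30 of 73) where the higher RNAi value lay from 0.5 to 1, 16.4% (19 of 116) from 1 to 2 and 24.4% (77 of 316) from 2 to 5. It was 10.9% (75 of 686) from 5 to 10 and 5.19% (526 of 10127) at 10 or more. The median WT mean was between 18.7 and 21.1 in the classes under 10 and 44.1 in the class of 10 or more. The classes were set after the values had been seen.

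**Figure D4:**
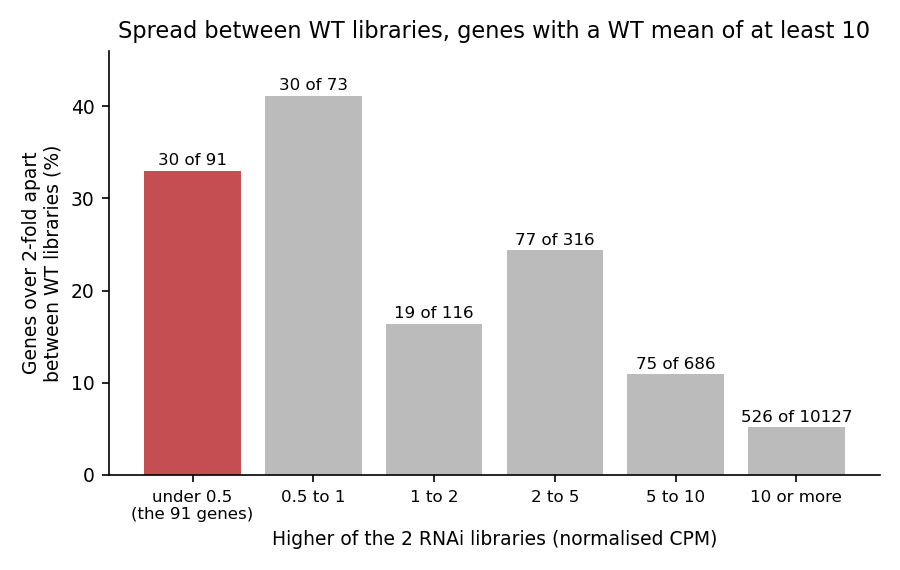
Percent of genes whose WT libraries differ by more than 2-fold, by the higher of both RNAi values in normalised CPM, among genes with a WT mean of at least 10; the numbers above the bars are genes over 2-fold and genes in the class. The bar of the 91 genes stands at 33.0%, below the 41.1% of the next class and above the 5.19% of genes at 10 or more.

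The members were spread over the numbered ID prefixes. There were 16 with the prefix Csa1, 11 with Csa2, 21 with Csa3, 12 each with Csa4, Csa6 and Csa7, and 7 with Csa5. As a share of the genes in the table this ranged from 0.303% (Csa5) to 0.688% (Csa7), around 0.517% for the whole table. None of the 79 CsaU genes was a member.

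In 3 places consecutive IDs, whose numbers differ by 10, were both members, which covers 6 of the 91 genes. Csa1G264540 had 0 reads in both RNAi libraries, against 79.3 and 78.0 normalised CPM in the WT libraries. Its neighbour Csa1G264550 also had 0 RNAi reads, against 74.3 and 63.3 normalised CPM in the WT libraries. These genes had nearly the same WT level and were at least 1558.7-fold and 1376-fold lower in RNAi. The flanking Csa1G264530, with 18.6 and 17.1 normalised CPM in RNAi and 47.2 and 20.8 in WT, and Csa1G264560, with 14.99 and 21.2 in RNAi and 29.4 and 19.4 in WT, were transcribed in both groups. A further ID on, Csa1G264570 lay just outside the set, with 0.214 and 0.542 normalised CPM in RNAi and 13.7 and 30.5 in WT.

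Csa4G053270 had 0 RNAi reads, against 15.2 and 19.2 normalised CPM in the WT libraries. Csa4G053280 likewise had 0 RNAi reads, against 28.8 and 28.2 normalised CPM in the WT libraries. Both were silent at this depth in RNAi, at least 335-fold and 564-fold lower, and the nearest lower ID in the table, Csa4G053250, was transcribed in both groups with 15.6 and 15.7 normalised CPM in RNAi and 27.2 and 32.0 in WT.

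Csa6G085110 had 0.107 and 0.0638 normalised CPM in the RNAi libraries, against 121 and 173 in the WT libraries. Csa6G085120 had 0.0357 and 0.0319 normalised CPM in the RNAi libraries, against 43.6 and 75.1 in the WT libraries. In both genes WT replicate 2 was the higher control. The RNAi level was 0.0587% of WT (0.0191 to 0.137) in Csa6G085110 and 0.0588% (0.00712 to 0.213) in Csa6G085120. These levels rest on 5 and 2 RNAi reads, too few to say that they are alike. The ID before them went the other way: Csa6G085100 had 7.53 and 5.87 normalised CPM in RNAi and 0.175 and 0 in WT, a log2 change of 2.82 (SE 0.21) in CPM + 1.

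The most abundant member lay in a longer run of lower genes, which was chosen for description after its values were seen. Csa4G285730, the ID before Csa4G285740, had 5.21 and 8.45 normalised CPM in RNAi and 1109 and 1322 in WT. Csa4G285750, the ID after it, had 0 and 0.128 normalised CPM in RNAi and 8.61 and 7.79 in WT. Csa4G285760 had 1.68 and 1.56 normalised CPM in RNAi and 133 and 170 in WT. In all of them the groups were far apart, although the WT levels of these neighbours ranged from just under the minimum of the set to well above its most abundant member. The log2 changes in CPM + 1 were -7.31 (SE 0.23), -3.11 (SE 0.18) and -5.85 (SE 0.17) for the 3 genes in the order given, each called by limma with adjusted p values of 0.000125, 0.00033 and 0.000123. Csa4G285770 fell too, by 1.35 on the same scale (SE 0.15, adjusted p 0.00199), whereas Csa4G285710 and Csa4G285780, at the ends of the run, were not called, with adjusted p values of 0.124 and 0.121.

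**Figure D5:**
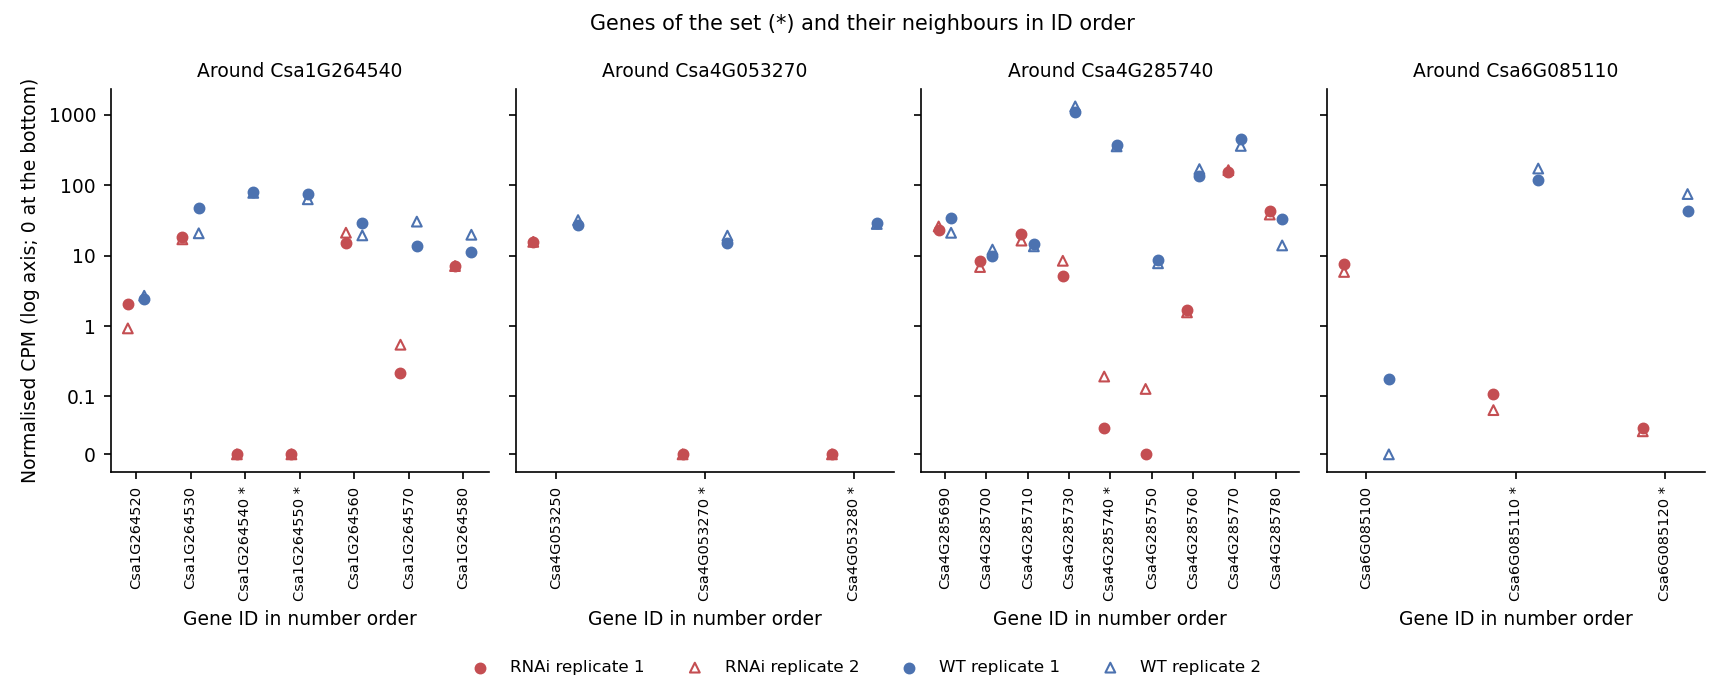
Normalised CPM on a log axis (0 at the bottom) in every library for IDs within 50 of 4 places in the ID order; a star marks members of the set, and IDs that are not in the table are left out. In each panel the starred genes sit at or near 0 in RNAi, and around Csa4G285740 the unstarred IDs from Csa4G285730 to Csa4G285760 are also far lower in RNAi than in WT.

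Over the whole set, the IDs next to a member were more often lower than the genes at large. Of the 182 places next to a member in ID order, 104 held a gene of the table, and 20 members had none on either side. The 98 different neighbours that were not members themselves had 45 genes called lower (45.9%, against 29.5% of all tested genes), 22 called higher (22.4%, against 31%) and 31 not called. Their median log2 change was -0.48, against 0.03 over all tested genes. A decrease of at least 4-fold in CPM + 1 was called in 15 neighbours (15.3%), against 7.44% of all tested genes. The neighbours' values were not used to choose the set, but the tendency of consecutive IDs to change together was known from these data before, so these counts are no independent support for it. Most neighbours were still transcribed in the RNAi leaves, 61 of the 98 reaching 10 normalised CPM on average.

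Near-silence was itself found among the neighbours. In 10 of the 98 (10.2%) both RNAi libraries lay under 0.5, against 248 of all 17494 genes outside the set (1.42%). Nearly all listed genes, 17491 of 17585, reached 1 in at least 2 libraries. A gene near-silent in RNAi could do so in WT alone, and this contrast was not tested. In 8 of the 98 (8.16%) the WT mean was also at least 3, against 154 of the 17494 (0.880%). This minimum was set after the values had been seen. The WT means of these 8 were between 3.50 and 9.32. The highest was Csa3G064230, next to the member Csa3G064240, with 0 reads in both RNAi libraries and 10.97 and 7.67 normalised CPM in WT. Csa3G064240 itself had 0.2498 and 0.319 normalised CPM in RNAi and 49.4 and 42.7 in WT. Other neighbours were abundant in WT and lower but not silent in RNAi. Csa7G222880, next to Csa7G222870, had 8.28 and 5.26 normalised CPM in RNAi and 563 and 306 in WT, and Csa4G031000, next to Csa4G030990, had 43.2 and 50.4 in RNAi and 1654 and 1776 in WT. The files hold neither coordinates nor sequences for these IDs, so whether neighbours overlap or are near-identical copies that share reads was not tested. Csa1G264570, the run around Csa4G285740 and the neighbours named in this paragraph were chosen after their values were seen.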

How the data were processed

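Total RNA of the first true leaf was sequenced in 2 RNAi and 2 WT libraries by standard Illumina methods, per the labels' protocols. The submitters' processing notes name TopHat (spliced alignment) and HTSeq (read counting), with no version. Genome build and strand setting are not stated in the labels or the table. Without a strand setting, reads of overlapping genes on opposite strands may not be told apart.

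The authors deposited 1 table of normalised signal per gene, which its name calls CPM. Of its 17585 genes, 17491 reached 1 in at least 2 libraries, so scarce genes may have been left out beforehand. Shares over all genes and counts of neighbours refer to the listed genes only. Columns total 869612.6 and 877343.5 in RNAi and 1209165.3 and 1083973.9 in WT, and 100% of values are whole multiples of 1 step per library to within 0.01 read. Those reads give TMM factors equal, to 4 decimals, to those the totals imply, so the values are called normalised CPM. One read is worth 0.0357 and 0.0319 in RNAi and 0.0437 and 0.0573 in WT.

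limma 3.58.1 (R 4.3.3) with a mean-variance trend was run on log2(normalised CPM + 1), without a replicate block, on 17491 genes with at least 1 in at least 2 libraries. This scale understates changes of scarce genes. Alternatives used edgeR 4.0.16 and DESeq2 1.42.0 on the recovered reads. The test was tried on simulated counts. The plan assumed CPM, and the scaling of the deposited values did not change the test.

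The members, lists and rules were chosen with earlier results of these data known. IDs named by a planned rule are the 15 members highest in WT, those at the limits of the rule, those with the widest WT gaps, the 5 highest without RNAi reads, consecutive members with their neighbours, and members not called. Named outside these rules are the run around Csa4G285740, Csa1G264570, Csa2G372760 and the genes under Other observations. The same holds for the neighbours Csa3G064230, Csa7G222880 and Csa4G031000 with the members next to them. No marker list could be read, since the IDs have no names.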

Additional observations from a re-analysis of the deposited data

How the results depend on the processing

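Membership depended on the limits chosen. It was 164 genes with a WT minimum of 5, 46 with a minimum of 20, 61 with an RNAi ceiling of 0.25, 164 with a ceiling of 1 and 59 where both WT libraries had to reach 10. With plain CPM 72 genes qualified, all among the 91, and with median-of-ratios scaling 91. Leaving out 1 library gave between 85 and 123 genes; 77 of the 91 were kept without WT replicate 1 and 73 without WT replicate 2. Between 68 and 91 members were called lower when 1 library was left out, and 83 of the 83 tested with a filter of 5. Both members not called in limma were called by edgeR and by DESeq2 (91 of 91), with pseudocounts of 0.5 and 0.1, and with the replicate block, which gave 4724 lower and 4900 higher genes overall. The labels give equal replicate numbers no shared plant or batch, and the difference between replicates 1 and 2 in RNAi correlated at -0.094 with that in WT across genes. The plan set no replicate block, and the replicate numbers were not treated as a pairing. Such a correlation cannot show whether libraries of equal number share a batch. Over all genes, lower calls ranged from 1854 to 6091 and higher calls from 2242 to 6295 when 1 library was left out. The lowest came without RNAi replicate 1 (1854 lower, 2242 higher) and RNAi replicate 2 (2055 and 2368), where the spread rests on WT. Plain CPM gave 3477 lower and 7534 higher calls, against 5165 and 5427. The count of members higher in WT replicate 1 was 44 of the 91 as deposited and with median-of-ratios scaling, but 36 with plain CPM. This split thus depends on the scaling. The count of 6 consecutive members stayed at 6 when ID numbers up to 50 apart were allowed. At this depth the ceiling of 0.5 leaves few RNAi reads, 25 at most in these genes, which limits the precision of the RNAi levels.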

Other observations

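Of the members with reads in 1 RNAi library alone, a pair had 12 such reads each. Csa5G179770 had 12 reads in RNAi replicate 1 and 0 in RNAi replicate 2, and Csa5G152820 had 0 in RNAi replicate 1 and 12 in RNAi replicate 2. In WT replicates 1 and 2 Csa5G179770 had 10.4 and 28.2 normalised CPM and Csa5G152820 had 10.9 and 21.99. These genes were chosen after their values were seen, and no cause was tested.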
